A study of Mus musculus with 3 samples.

Results

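An antisense gene is a non-coding gene that the annotation places over another gene, on the opposite DNA strand. Of the 2959 genes that GENCODE M21 classes as antisense, 194 (6.56%) had at least 2 TPM (an abundance relative to the whole library and corrected for transcript length) in each of 3 libraries of activated regulatory T cells, and these 194 genes are described here. Genes whose names start with Snhg, Gas5 or Tsix were left out by name, which removed 1 gene, at 4.76 TPM. Each antisense gene was paired with its host, the protein-coding gene on the other strand that its gene body overlaps over the most bases. A host was found for 183 of the 194, and the other 11 overlapped no protein-coding gene on the other strand. The TPM values chose these genes, so their levels and their levels against the hosts are descriptions with no test. The cells came from 1 male mouse aged 9 weeks, and the 3 polyA-selected RNA-seq libraries were technical replicates of 1 biosample, with no other group. The labels name no strain, genotype or way of activation, and they do not say how the cells were isolated. Every SD below is therefore over 3 libraries (n = 3) of the same cells and measures technical spread only.

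Antisense RNAs are transcribed across or beside a gene of the other strand, and many start from the same CpG-rich promoter region as that gene and run the other way. Some are known to act on their neighbour. Airn silences the paternal copy of Igf2r, and Tug1 and Flicr are studied as regulatory long non-coding RNAs. Many others are unstable, and the nuclear RNA exosome degrades them. Regulatory T cells are the Foxp3-dependent CD4 T cells that hold immune responses in check. In them, Flicr is transcribed from the Foxp3 locus itself and is known as a brake on Foxp3.

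The libraries held 31445344, 32612609 and 37259281 expected counts, and the 194 genes took 0.1498%, 0.156% and 0.155% of them. Their median count per library was 95.3, 108 and 110.5, with a range from 8 to 7422, so single values of the low members rest on few reads. Markers fitted the label. The 6 pan-T genes had a median of 1185 TPM and the 7 Treg genes one of 389. The summed level of B cell markers was 36.7 to 50.9 TPM over the libraries, that of macrophage markers 48.1 to 53.6 and that of stromal markers 0.62 to 1.24. The 5 CD8 and NK genes summed to 353 to 361 TPM, of which the granule gene Nkg7 made 335 ± 4.16 and Cd8b1 21.4 ± 0.893, while Cd8a, Klrd1 and Ncr1 stood at 1.64, 0.72 and 0.093. The 4 globin genes summed to 632 to 885, and no marker was listed at 0 in all libraries. The part of other cell types in the antisense levels was not tested.

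The first measurement bears on how each value below can be read. Where an exon of an antisense gene lies on an exon of the other strand, a read from either strand has the same letters once the strand is lost. The tables give for each gene the posterior SD of its count, which is above 0 when reads could not be placed with certainty. Among 612 antisense genes with a summed count of at least 30 and no exon overlap on their own strand, this SD was above 0 in 13 of 159 genes (8.18%) that shared no exonic base with the other strand. It was above 0 in 428 of 453 genes (94.5%) that shared any. The median SD was 0, 3.07, 8.53, 15.2, 27.7 and 20.2% of the count in genes sharing none, up to 25%, over 25 to 50%, over 50 to 75%, over 75% but not all, and all of their exonic bases. Reads over shared exons were thus split between both strands by estimation. Of the 194 expressed genes, 143 (73.7%) shared exonic bases with a gene of the other strand, against 57.7% of the other antisense genes. At least 50% of the exonic bases were shared in 30 genes, and all of them in 11.

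**Figure D1:**
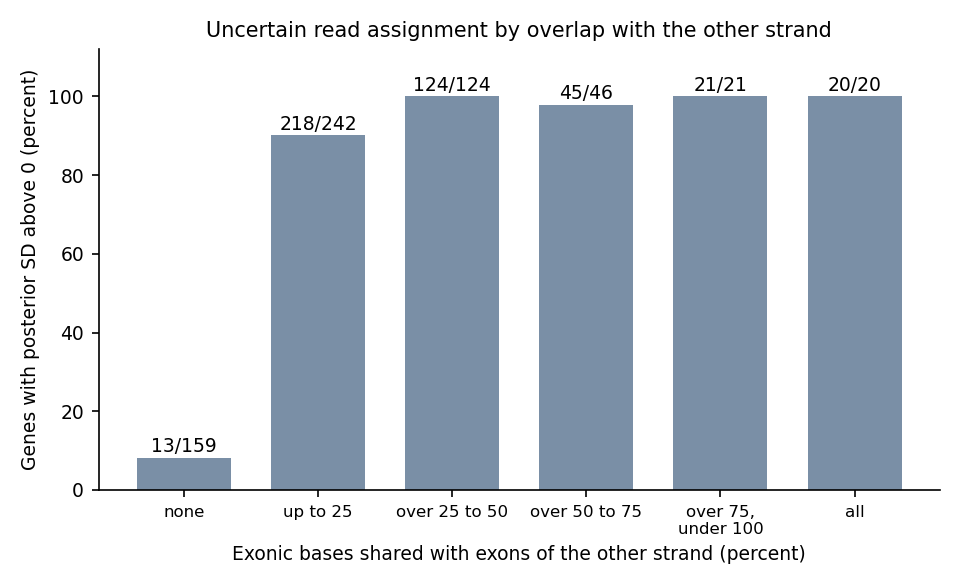
Share of antisense genes (summed count of at least 30, no exon overlap on their own strand) whose deposited posterior SD of the count was above 0 in any library, by the percentage of exonic bases shared with exons of the other strand. Numbers above the bars are genes with an SD above 0 over genes in the class. The share was 13 of 159 where no base was shared and 90.1% or more in every other class.

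The sequences below show this overlap for 3 abundant pairs, as 50-base stretches (the read length) of the antisense and the host transcript over coding sequence of the host, each written 5′ to 3′ from the GENCODE M21 transcripts on GRCm38 (mm10). The capitals mark the same 6 genome positions in both members of a pair. They stand first in the antisense RNA and last in the host mRNA, because the pair are reverse complements. Foxo1 encodes a transcription factor that keeps T cells quiescent, Jund an AP-1 subunit, and Cish a suppressor of cytokine signalling. The stretches lie at chr3:52268887-52268936, chr8:70699784-70699833 and chr9:107300515-107300564, with the antisense gene on the minus strand and the host on the plus strand in all 3.
Gm20402: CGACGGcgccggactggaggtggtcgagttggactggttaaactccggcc
Foxo1: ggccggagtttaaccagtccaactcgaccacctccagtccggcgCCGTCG
Gm11175: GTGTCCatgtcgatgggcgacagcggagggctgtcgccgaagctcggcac
Jund: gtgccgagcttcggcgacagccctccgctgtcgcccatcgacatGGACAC
Gm17041: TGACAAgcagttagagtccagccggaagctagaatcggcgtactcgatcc
Cish: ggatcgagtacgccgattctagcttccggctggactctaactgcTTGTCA
Of the exonic bases of Gm20402, 674 of 687 lay on exons of Foxo1. All 877 of Gm11175 lay on exons of Jund and all 479 of Gm17041 on exons of Cish, so without strand only reads across their own splice junctions differ from reads of the host.

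Most of the 194 were low and a few were abundant. The quartiles of mean TPM were 3.36, 4.92 and 11.4. At least 10 TPM was reached by 55, at least 50 by 10 and at least 100 by 5. The 5 most abundant held 30.1% of the summed TPM of all 194, and the top 10 held 41.8%. At the same minimum of 2 TPM in all libraries stood 9853 of 22028 protein-coding genes (44.7%), with a median of 32.3 TPM, and 179 of 5854 lincRNA genes (3.06%), with a median of 6.76.

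The most abundant was Gm15564 (ENSMUSG00000086324.8, mm10 chromosome 16, 35966752 to 35983230, minus strand), with 203, 215 and 206 TPM in libraries 1, 2 and 3. Its host Parp9, an interferon-induced ADP-ribosyltransferase family gene, had 111.8, 109.9 and 110.5 TPM, so the antisense gene was above its host in every library. None of its 821 exonic bases lay on an exon of any other gene, and its posterior SD was 0.725% of the count. Gm37401 followed with 143, 146 and 175 TPM, highest in library 3. It overlaps the end of Rhoa, a small GTPase gene of cell shape and migration, tail to tail and shared 324 of its 347 exonic bases with it. Rhoa stood at 358 ± 15.6 TPM, above Gm37401 in every library.

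Gm26740 (ENSMUSG00000097705.1, chromosome 10, 22187013 to 22302835, minus strand) had 143, 155 and 149 TPM in libraries 1, 2 and 3. Its main host Raet1e, which encodes a ligand of the activating receptor NKG2D, had 0.24, 0.10 and 0.38 TPM. Another gene of that ligand family under it, H60b, stood at 6.23 TPM. The leading transcript by TPM held 95.8% of Gm26740 and 86.1% of Raet1e, and these transcripts did not overlap. Gm26740 shared no exonic base with other genes and its posterior SD was 0 in all libraries, so no read of a shared exon entered its count. Gm20400 had the same pattern, with 68.4, 57.9 and 61.5 TPM inside Slco1a6, an organic anion transporter gene at 0.23, 0.12 and 0.73 TPM. It too shared no exonic base with another gene and had a posterior SD of 0. These 2 hosts were counted with 18.8 and 10 reads over all libraries. The ratio of mean TPM was 619 for Gm26740 and Raet1e (396 to 1032 from the exact Poisson interval of the host count, 95%) and 174 (94.6 to 363) for Gm20400 and Slco1a6. These intervals cover counting error of the host only.

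**Figure D2:**
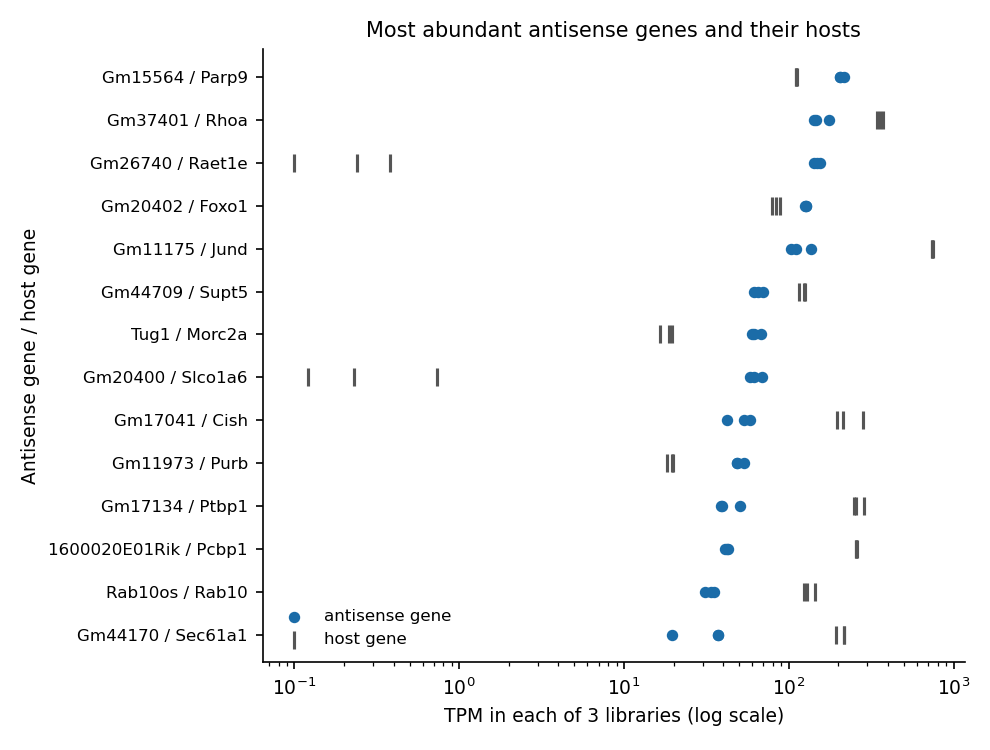
TPM (log scale) in each of 3 libraries of 14 of the 15 antisense genes with the highest mean TPM (dots) and of their hosts (bars), ordered by level. Antisense dots lie to the right of the host bars in all 3 libraries for Gm15564, Gm26740, Gm20402, Tug1, Gm20400 and Gm11973, and to the left for the other 8 pairs.

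Gm20402 (ENSMUSG00000092405.1, chromosome 3, 52268435 to 52269435, minus strand), whose stretch is printed above, had 127, 126 and 127.5 TPM, the smallest relative spread of all 194 (coefficient of variation, CV, 0.75%). Foxo1 had 83.6, 78.5 and 88.3 TPM, below Gm20402 in all libraries. As 674 of the 687 exonic bases of Gm20402 lay on Foxo1 exons, this order depends on how shared reads were divided by estimation. The posterior SD of Gm20402 was 1.44% of its count. The antisense gene is short (687 exonic bases), and on counts with no correction for length Foxo1 was the higher of the pair, at a log2 ratio of -3.15. Gm11175 had 110.4, 104 and 136 TPM beside 741 ± 8.41 for Jund. Gm17041 had 53.8, 58.4 and 42.2 TPM beside 281, 214 and 195 for Cish. Gm17041 and Cish were both lowest in library 3. Gm44709 lies inside Supt5, a transcription elongation factor gene, and had 65.0, 61.3 and 69.3 TPM beside 122 ± 5.20. It shared 433 of its 448 exonic bases with the host.

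Tug1, a long non-coding RNA gene that starts 482 bases from the start of Morc2a, a chromatin-silencing ATPase gene, had 61.9, 60.0 and 67.5 TPM. Morc2a had 19.5, 18.8 and 16.5, so the values did not overlap. Of the 9734 exonic bases of Tug1, 483 were shared with the other strand and 648 with a gene on its own strand. The leading transcripts of Tug1 and Morc2a by TPM did not overlap. Gm11973 starts 492 bases from Purb, which encodes a single-stranded nucleic acid-binding protein. It had 53.8, 48.5 and 48.2 TPM, above 19.6, 18.3 and 19.9 for Purb.

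A further 4 of the 15 were below their hosts in every library. Gm17134, with all 437 exonic bases on Ptbp1, a splicing regulator gene, had 50.6, 38.9 and 39.04 TPM beside 263 ± 18.8. The gene 1600020E01Rik had 42.9, 40.8 and 42.3 TPM beside 257 for Pcbp1, which encodes a poly(C)-binding protein. Rab10os had 31.1, 35.2 and 33.6 TPM beside 132 ± 10.9 for Rab10, a vesicle traffic GTPase gene. Gm44170, wholly inside exons of the translocon gene Sec61a1 (208 ± 12.9 TPM), had 37.1 and 37.2 TPM in libraries 1 and 2 but 19.5 in library 3.

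A log2 ratio of antisense to host TPM could be formed for 182 pairs. For the remaining pair, Sp3os (32.9, 29.9 and 29.2 TPM), the main host Gm11084 was listed at 0 and the other host, the transcription factor gene Sp3, stood at 119 TPM. The median log2 ratio was -2.95, a host 7.74-fold above its antisense gene, with quartiles of -4.77 and -1.80 and a range from -7.38 to 9.47. The medians in libraries 1, 2 and 3 taken singly were -3.12, -3.07 and -3.13. A ratio counted as beyond the spread where the libraries gave 1 sign and the absolute mean was over 2 SD. The host was higher by mean TPM in 162 pairs, 158 of them beyond the spread, at least 10-fold higher in 86 and at least 100-fold higher in 6. Across the 182 pairs, antisense and host levels had a Spearman correlation of 0.02 and a Pearson's r of log2 TPM of -0.03. The Spearman correlation was 0.08 in the 138 pairs that shared exonic bases and -0.12 in the 44 that did not, with a Pearson's r of 0.12 and -0.37. These correlations are across genes of the same 3 libraries, and a lower limit of 2 TPM applied to the antisense side only.

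**Figure D3:**
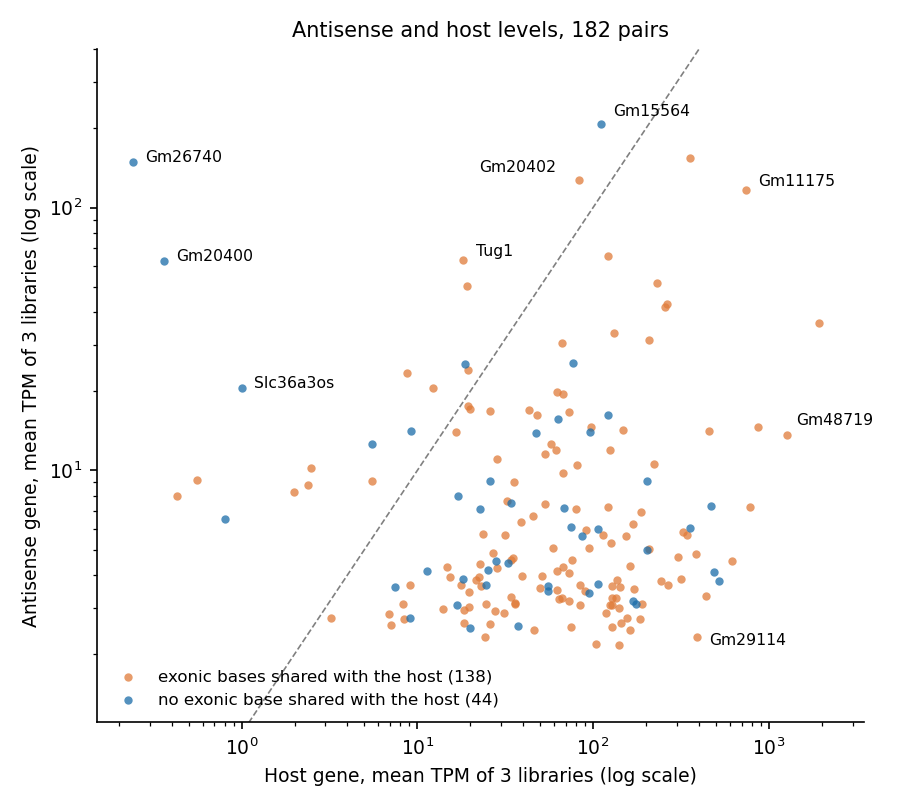
Mean TPM over 3 libraries of the antisense gene against that of its host (log scales) for 182 pairs, coloured by whether they share exonic bases. The dashed line marks equal levels. Most pairs lie below it, and Gm26740 and Gm20400 lie farthest above it.

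The 138 pairs with shared exonic bases had a median of 4.62 TPM for the antisense gene, 67.2 for the host and -3.34 for the log2 ratio. The 44 pairs without had medians of 5.998, 42.3 and -2.70. The 11 genes that lay wholly on exons of the other strand had a median of 16.9 TPM, a level that was divided between 2 strands by estimation. The 49 genes that shared no exonic base with any gene on either strand had a median of 5.61 TPM and a range from 2.24 to 208. No shared exon had to be divided for them, but 5 of the 49 had a posterior SD above 0 in some library. Of these 49, 46 had more than 1 exon. The most abundant after Gm15564, Gm26740 and Gm20400 were Arhgap27os3 (25.3, 26.9 and 24.9 TPM), Gm13012, Slc36a3os, 1810041H14Rik (13.8, 17.8 and 17.1) and Gm20069 (13.7, 18.1 and 15.3). Unspliced host RNA also covers exons of an antisense gene that lie in host introns, and without strand its reads cannot be told apart from antisense reads.

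Antisense genes were above their host by mean TPM in 21 of 183 pairs, in all 3 libraries in 20 and beyond the spread in 19. The pairs with the largest ratios had hosts that were nearly silent. Slc36a3os had 20.2, 19.9 and 21.6 TPM inside Slc36a3, an amino acid transporter gene at 1.11, 1.18 and 0.72, with a log2 ratio of 4.39 ± 0.45. The gene 6330418K02Rik stood at 7.99 ± 1.28 TPM beside 0.43 for the sulfotransferase gene Gal3st4, which had 46.0 counts over all libraries. Trmt61b stood at 9.16 ± 1.06 TPM beside 0.557 for the cell cycle regulator gene Spdya. Its symbol is that of a tRNA methyltransferase gene, and its antisense type was taken from the annotation as given. Gm42722 stood at 6.54 ± 1.02 beside 0.807 for Pifo, a gene of primary cilia, but its other host Chil5 was above it, at a log2 ratio of -1.42.

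In the pairs that follow, also with the antisense gene on top by mean TPM, the host had at least 1 TPM in all 3 libraries. Mypopos had 25.3, 23.2 and 21.9 TPM beside 9.50, 8.61 and 7.92 for Mypop, a Myb-related repressor gene, with a log2 ratio of 1.44 ± 0.03. Gm13012 had 26.5, 26.6 and 23.3 TPM beside 18.6 ± 0.512 for the protease gene Ece1. Brip1os had 20.2, 19.1 and 22.7 TPM around Ints2, an Integrator complex gene at 12.3 ± 1.48. Its other host, the Mediator gene Med13, stood at 19.1 ± 1.11 TPM, which brings the log2 ratio from 0.75 to 0.11. Gm20324 stood at 12.6 ± 0.490 TPM inside the transcriptional co-regulator gene Tcf20 (5.52 ± 0.455), and 1810034E14Rik at 14.2 ± 2.50 inside the phosphatase gene Cdc14b (9.16 ± 2.11). Gm31597 exceeded the sulfotransferase gene Sult2b1 (2.48 ± 0.979 TPM) by 2.13 ± 0.59 on the log2 scale, and Gm13554 exceeded Nacc2 (2.39 ± 0.885) by 1.87 ± 0.31. On the same scale, 1810062O18Rik exceeded Usp54 (1.99 ± 0.165 TPM) by 2.03 ± 0.47 and 1110002L01Rik exceeded the kinesin gene Kif3c (5.55 ± 0.537) by 0.71 ± 0.20. The lowest library was under 2 TPM for Sult2b1 (1.42), Nacc2 (1.39) and Usp54 (1.81). Gm13554 lay wholly on exons of Nacc2. A second, more abundant host was above 1810062O18Rik (Ppp3cb) and 1110002L01Rik (Asxl2), at log2 ratios of -1.55 and -2.89. Gm17173 had 25.3, 27.9 and 19.5 TPM around Ptger2, a prostaglandin E2 receptor gene at 20.5, 17.0 and 21.1. These values overlapped and the difference was within the spread. For 10 of the 21, among them Gm15564, Gm20402 and Gm17173, the order was the opposite on counts with no length correction, since these antisense genes are shorter than their hosts.

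In architecture, 91 of the 183 pairs (49.7%) had the antisense gene inside the host, 53 (29.0%) overlapped head to head at their starts, 32 (17.5%) tail to tail at their ends, and 7 (3.83%) had the antisense gene around the host. The other 2548 antisense genes with a host had 59.6% inside, 21.8% head to head, 15.1% tail to tail and 3.53% around. Exons lay on coding sequence of the host in 89 (48.6%), on untranslated exons only in 49 (26.8%) and in introns or outside host exons in 45 (24.6%). The same shares were 42.5%, 15.7% and 41.8% of the other antisense genes. Starts within 1000 bases of the host start were found in 32 pairs (17.5%) and in 11.9% of the others. The median log2 ratio was -3.31 head to head, -2.94 inside, -2.79 tail to tail and -3.35 around. The expressed genes had a median of 1114.5 exonic bases against 905 and a single exon in 28 (14.4%) against 6.62% of the other antisense genes. With the ends of the leading transcripts by TPM in place of the gene ends, 40 of the 183 pairs did not overlap. These differences describe the annotation of genes chosen by level and were not tested.

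Promoter windows from RefSeq (GRCm38.p6, 250 bases before to 50 after a start) matched 89 of the 194 by symbol. These had a median of 12.5 CpG dinucleotides in 300 bases over 106 windows, against 7 over all 32851 windows. The 14 matched genes that start within 1000 bases of their host start had a median of 25.5 and the 69 that start farther away one of 8. The hosts had 20.5 over 196 windows. The letters GGGCGG, read on both strands, were in 41.5% of the windows of the antisense genes, 58.7% of those of hosts and 35.7% of all. The run TATAAA was in 2.83%, 8.67% and 13.6%, and the run CCAAT in 33.0%, 37.8% and 37.4%. A match is a description of the letters and not a binding site.

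Most hosts of the expressed antisense genes were themselves expressed. Detected here means at least 1 TPM in all 3 libraries, which 47.3% of all 22028 protein-coding genes reached. Of the 180 distinct hosts, 173 (96.1%) were detected, with a median of 62.9 TPM, and 63 (35.0%) had at least 100 TPM, against 8.20% of all protein-coding genes. Of 2199 genes that host other antisense genes only, 1091 (49.6%) were detected, with a median of 1.36 TPM. Among pairs that shared no exonic base with each other, 40 of 45 hosts (88.9%) were detected, with a median of 37.5 TPM. For hosts of the other antisense genes without shared exons, the values were 405 of 921 (44.0%) and 0.517 TPM. Only the paired host was considered here, so these antisense genes can share exonic bases with another gene. Reads from unspliced host RNA were not told apart in either group, and their part in this difference was not tested.

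Of 117 genes on a list of T cell genes, 13 hosted an expressed antisense gene (11.1%), beside 0.817% of all protein-coding genes, 1.66% of the 10429 detected ones and 3.49% of the 1806 with at least 100 TPM. All 117 were detected, with a median of 147 TPM. An annotated antisense gene, at any level, was hosted by 26 of the 117, while 19386 of the 22028 protein-coding genes hosted none. The list was chosen with earlier results of these data known, and these shares were not tested. In 12 of the 13 pairs the antisense gene was below the host in every library, by 4.46-fold to 167-fold. The exception was Gm20402 at Foxo1, where 98.1% of the exonic bases of Gm20402 were shared and reads were divided by estimation. The median log2 ratio was -5.88, against -2.95 over all pairs, and 8 of the 13 shared exonic bases with the host.

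Among hosts of the antigen receptor, Gm48719 lies inside Cd3e, a signalling chain of the T cell receptor complex, and had 13.6, 14.5 and 12.9 TPM. Cd3e had 1300, 1229 and 1293, and the log2 ratio was -6.55 ± 0.12. Gm37469, inside Cd247 (the zeta chain), had 6.72, 5.69 and 5.65 TPM beside 389, 325 and 354. It shared no exonic base with any gene, so no read of a shared exon entered its count. Gm37469 is, however, 1 exon of 890 bases within an intron of Cd247. Without strand, reads of unspliced Cd247 RNA cannot be told apart from its own, and their part was not tested. Both antisense levels stayed in a narrow band over the libraries.

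Among receptors and cytokines, Gm16008 runs around Tnfrsf18, the costimulatory receptor GITR of regulatory T cells, and had 16.7, 13.5 and 13.9 TPM beside 873 ± 5.72. Gm16712 reads into the end of Ebi3, a subunit of interleukin 35, and had 4.94, 3.82 and 6.50 TPM beside 59.2 ± 2.27. Among signalling genes, AC137853.2 at the phosphatase gene Dusp5 had 3.60, 4.95 and 2.94 TPM beside 136 ± 3.58. Gm20234 at Slfn2, a gene of T cell quiescence, had 4.23, 3.47 and 3.65 TPM beside 519 ± 11.7, a log2 ratio of -7.10 ± 0.12, with no shared exonic base.

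Among transcription factor hosts, Ikzf2 encodes Helios, a factor of regulatory T cells. Its antisense gene Gm29114 had 2.22, 2.36 and 2.41 TPM beside 361, 393 and 414 for Ikzf2, the lowest ratio of all 182 pairs (log2 -7.38 ± 0.04). The leading Ikzf2 transcript by TPM was of the retained-intron class, with 67.6% of the gene. Gm12000 inside Ikzf1, which encodes Ikaros, had 5.85, 5.91 and 6.50 TPM beside 74.9 ± 2.03 and shared no exonic base. Gm43352 at Lef1, a Wnt pathway factor of naive T cells, had 3.72, 2.93 and 2.7 TPM beside 189.5 ± 2.72. Gm45479 inside Irf2 had 3.00, 3.08 and 3.47 TPM beside 168 ± 19.1. AC123818.1 inside Nfatc1, a calcium-dependent activation factor gene, had 3.14, 4.16 and 2.02 TPM beside 175 ± 8.49, with its lowest library near the minimum of the rule.

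**Figure D4:**
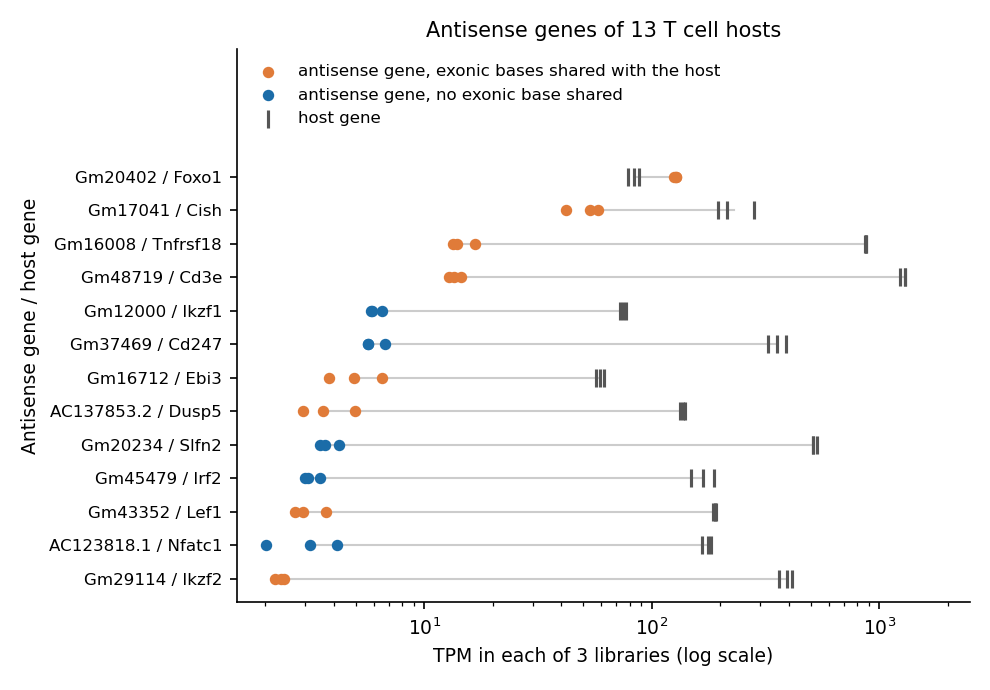
TPM (log scale) in each of 3 libraries of 13 antisense genes (dots, coloured by whether exonic bases are shared with the host) and of their T cell hosts (bars), joined by a line between the means. Only Gm20402 lies above its host, and the widest gap is that of Gm29114 and Ikzf2.

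A further 3 loci (Flicr, Runx2 and Gt(ROSA)26Sor) were chosen after their values were seen. Flicr (ENSMUSG00000039545.16, chromosome X, 7573600 to 7581027, plus strand) had 17.0, 17.7 and 18.1 TPM, with a posterior SD of 0.591% of the count. Its host by the pairing rule is Ppp1r3f, a gene of a glycogen-targeting phosphatase subunit, on the minus strand. Ppp1r3f had 20.3, 20.7 and 16.9 TPM, the values overlapped and the log2 ratio of -0.13 ± 0.20 was within the spread. On counts with no length correction Flicr was the higher in every library, at 36.0, 38.4 and 38.9 CPM (counts scaled to the library total) beside 34.0, 33.4 and 29.98. Flicr starts 683 bases inside the start of Ppp1r3f and shared 310 of its 3583 exonic bases with it. It also shared 853 exonic bases with Foxp3 on its own strand. Foxp3 had 138, 133 and 134 TPM. The window of 300 bases around the start of Flicr (chrX:7573350-7573649, GRCm38.p6, RefSeq) is printed because it lies wholly on coding sequence of Ppp1r3f. Capitals mark its 20 CpG dinucleotides, and the start follows base 250.
Flicr: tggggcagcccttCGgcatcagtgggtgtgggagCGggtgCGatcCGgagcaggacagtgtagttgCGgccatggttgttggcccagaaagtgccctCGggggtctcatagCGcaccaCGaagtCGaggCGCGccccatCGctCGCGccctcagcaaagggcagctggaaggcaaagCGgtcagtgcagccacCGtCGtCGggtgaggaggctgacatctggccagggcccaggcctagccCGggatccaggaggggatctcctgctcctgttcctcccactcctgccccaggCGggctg
The window was 67.3% G and C and held none of these 3 runs of letters on either strand.

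**Figure D5:**
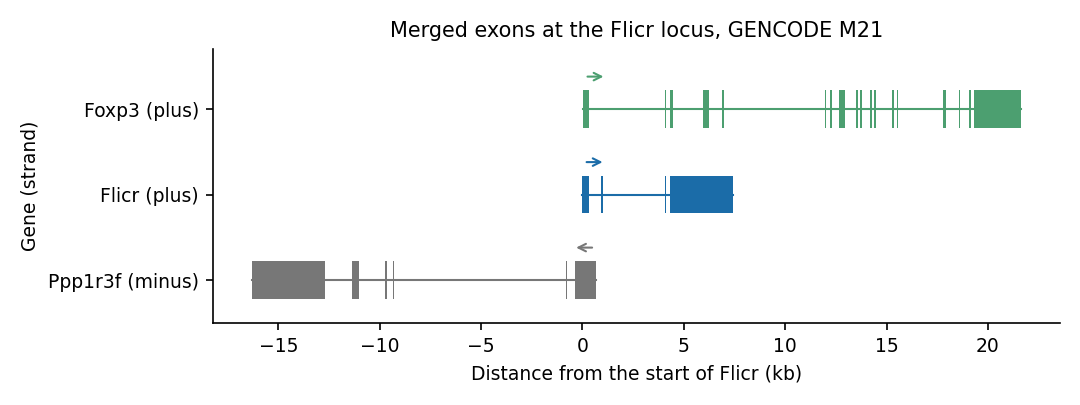
Merged exons (boxes) of Foxp3, Flicr and Ppp1r3f along the distance from the start of Flicr (kb), with arrows for the direction of transcription. The first exon of Flicr lies on the first exon of Ppp1r3f and on that of Foxp3, and its last exon spans several exons of Foxp3.

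Runx2, a Runt family transcription factor gene, hosted a pair of antisense genes. Runx2os2 had 6.95, 8.67 and 5.74 TPM and shared no exonic base with another gene, and Runx2os1 had 5.02, 3.77 and 4.48 TPM and shared 519 of 792. Runx2 had 24.6, 22.9 and 20.6 TPM, above both in every library. Gt(ROSA)26Sor, the Rosa26 locus used for transgene insertion, had 25.1, 33.8 and 33.1 TPM beside 65.6, 67.4 and 65.8 for Thumpd3.

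On a list of 33 known antisense RNAs, 28 were annotated, 9 were detected and 12 were of the antisense type. The only one among the 194 was Airn (ENSMUSG00000078247.4, chromosome 17, 12741311 to 12860136, plus strand), with 3.49, 4.31 and 5.56 TPM. Igf2r, its imprinted target and host, had 35.5, 31.4 and 31.5 TPM, and the log2 ratio of -2.90 ± 0.42 was beyond the spread. Airn shared no exonic base with Igf2r and its posterior SD was 0, at counts of 62, 72 and 117 in libraries 1, 2 and 3. Where its exons lie in introns of Igf2r, reads of unspliced Igf2r RNA cannot be told apart without strand. Their part was not tested. Kcnq1ot1, the antisense RNA of the Kcnq1 imprinted domain, stood below the minimum at 1.04, 1.25 and 1.1 TPM. Nespas had 0.47, 0.76 and 0.94. The start windows of Airn (chr17:12741061-12741360, plus strand) and of Gm26740 (chr10:22302789-22303088, minus strand) are given beside that of Flicr because they differ from it in CpG content, with 3 and 1 CpG dinucleotides in capitals.
Airn: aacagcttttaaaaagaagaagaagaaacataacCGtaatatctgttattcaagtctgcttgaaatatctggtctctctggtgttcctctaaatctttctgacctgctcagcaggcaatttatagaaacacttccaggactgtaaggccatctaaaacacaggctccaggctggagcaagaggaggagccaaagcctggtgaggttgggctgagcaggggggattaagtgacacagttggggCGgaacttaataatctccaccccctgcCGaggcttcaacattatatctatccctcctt
Gm26740: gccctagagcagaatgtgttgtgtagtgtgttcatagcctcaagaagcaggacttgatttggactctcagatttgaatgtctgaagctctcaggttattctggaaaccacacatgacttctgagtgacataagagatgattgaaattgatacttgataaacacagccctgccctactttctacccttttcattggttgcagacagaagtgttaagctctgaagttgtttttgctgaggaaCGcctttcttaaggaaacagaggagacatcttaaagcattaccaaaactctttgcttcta
The Airn window was 45.7% G and C and held GGGCGG and also the run TATAAA. That of Gm26740 was 41.0% G and C and held CCAAT.

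Of the 11 genes without a protein-coding gene on the other strand, 2810001G20Rik was the most abundant, with 13.2, 16.6 and 13.7 TPM. B630019A10Rik (13.6, 14.5 and 14.4), Gm43079 (7.79, 14.5 and 10.98), D730005E14Rik (11.6, 10.5 and 10.7) and Etaa1os (6.62, 6.58 and 7.33) followed. The remaining 6 lay between 2.16 and 6.95 TPM in any library. Gm43079 was the only one of the named 5 whose highest library was over 1.5 times its lowest.

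The median CV between libraries was 14.3% for the 194, 6.16% for the hosts and 7.91% for all 11369 genes at the same minimum, at median counts of 105, 3031 and 1256 per library. A chi-square test of equal shares over the libraries, adjusted over all genes by Benjamini-Hochberg, called 65.8% of all 15945 genes with a summed count of at least 30. It called 72 of the 194 (37.1%) and 132 of 177 tested hosts (74.6%). Among genes with a summed count of at least 300, it called 53 of 102 antisense genes (52%) and 71.8% of all genes. The rule that chose the 194 asked for 2 TPM in each of these libraries, which removed genes with a low library. Calls also depend on the count, so these shares cannot be compared between groups. With the statistic divided by the overdispersion that all genes shared (8.62), 1.85% of all genes were called, 0 of the 194 and 8 of the hosts (4.52%). This factor was set by the median over all genes and applied to every gene whatever its count. Genes with low counts could then hardly be called, so no conclusion is drawn from the 0. The antisense genes had a median summed count of 315.5 over the 3 libraries. With 1 library left out, 20.8 to 26.4% of the antisense genes (40 to 51) and 41.1 to 48.6% of all tested genes were called.

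The 5 with the widest spread were Gm17122 (15.4, 7.45 and 6.36 TPM), Gm13522 (6.63, 3.79 and 9.65), Gm37065 (3.02, 3.23 and 6.09), Gm13554 (9.05, 5.11 and 12.3) and Gm12764 (2.18, 4.96 and 3.48). Gm17122 lay wholly on exons of the actin regulator gene Coro1c (67.6 ± 3.47 TPM), and its posterior SD was 33.6% of its count. Gm37065 lies at Slamf6, a lymphocyte receptor gene at 491 ± 18.3 TPM, and its posterior SD was 0.217%. The high library differed from gene to gene. It was library 1 for Gm17122, library 2 for Gm12764 and library 3 for the other 3. The smallest spreads after Gm20402 were those of Gm45095 at the transcription factor gene Cebpg (3.26, 3.30 and 3.34 TPM), Gm44686 at the chromatin remodeller gene Chd2 (12.0, 12.3 and 11.7), Gm15133 at Trim12a (3.77, 3.75 and 3.60) and 1600020E01Rik. Gm45095 was counted with 13, 14 and 16 reads in libraries 1, 2 and 3, too few to read its narrow spread as a stable level. At the wide end, Gm12764 had counts of 24.1, 58.3 and 46.1 and Gm37065 of 34, 34 and 73.8. Spreads of such genes rest on few reads.

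The genes nearest the minimum show how it divides a continuous range. Just inside were Gm16740 at Mllt11 (3.51, 2.00 and 2.64 TPM), Gm12359 at Msl1 (2.96, 2.01 and 2.89) and AC165962.1 at Btbd9 (2.10, 2.01 and 3.30). Just outside were Gm11713 at Pitpnc1 (2.38, 3.16 and 1.99), 1500015A07Rik at Afap1l1 (3.65, 1.99 and 3.75) and Gm16754 at Keap1 (2.48, 2.06 and 1.97). The genes outside had means of 2.17 to 3.13 TPM, which overlap the 2.47 to 2.72 of those inside.

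Genes of the machinery that degrades or senses such RNAs were expressed. All 21 annotated genes of the nuclear exosome list were detected, with a median of 40.9 TPM, from Exosc8, a core subunit (194 ± 5.59), to the adaptor gene Zc3h3 (9.24 ± 0.857). The helicase gene Mtrex stood at 57.2 ± 3.52 and the catalytic subunit genes Exosc10 at 76.4 ± 7.04 and Dis3 at 19.7 ± 3.50. Of 24 genes that sense, bind or edit double-stranded RNA, 22 were detected, with a median of 25.02 TPM. They were led by the nucleic acid sensor Zbp1 (269 ± 5.01), the editing enzyme Adar (86.4 ± 4.48) and the RIG-I gene Ddx58 (83.1 ± 2.01). Stau2 had 0.95, 1.48 and 0.32 TPM and Tlr3 had 0.33, 0.25 and 0. None of these hosted one of the 194, beside 1.66% of all detected protein-coding genes, and 1 exosome gene and 4 double-stranded RNA genes hosted an antisense gene below the minimum.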

How the data were processed

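Per the labels, polyA RNA was sequenced from 3 technical libraries of 1 biosample on mm10. The authors' larger gene table and the transcript table hold expected counts, TPM and FPKM with the posterior SD of the count, per the file headers, and the transcript table also holds isoform percentages, deposited as percent. Expected counts split shared reads and need not be whole. The authors' smaller gene table holds whole-number counts for 22457 genes. The sources used here name no aligner, counter or strand setting for these tables. Reads of 50 bases were taken from the 49 by which length exceeds effective length.

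Identifiers were matched to GENCODE M21 (55536 of 81881 rows). Rows of no annotated gene held 0.125, 0.182 and 0.155% of counts and stayed out. Members and lists were chosen with earlier results of these data known. Named were the 15 highest members (1 is not reported here), those above their host, those at T cell hosts or on the known list, 3 on either side of the minimum and the 5 widest and 5 narrowest in spread. No pseudocount was used for ratios. Expected counts were rounded for the chi-square test (2 degrees of freedom, 0.05). It was tried on simulated Poisson counts, which hold none of the overdispersion of these libraries and so cannot show how it behaves under it. With edgeR 4.0.16 (intercept only), the square root of the common dispersion was 19.8%. R 4.3.3, DESeq2 1.42.0, Python 3.11.15, pandas 2.3.3 and scipy 1.17.1 were used. Alternatives for the minimum, host choice, length correction, pseudocount, scaling and libraries are given in the closing section. Reads carry no molecular identifiers, so intervals cover counting error only.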

Additional observations from a re-analysis of the deposited data

How the results depend on the processing

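The number of expressed antisense genes followed the minimum, with 329 at 1 TPM, 84 at 5 TPM and 124 at an FPKM of 2, and 206 to 219 when a library was left out. The median log2 ratio of antisense to host kept its sign in all settings run. It was -3.09 with the most abundant host, -4.78 with no length correction, -4.003 in the smaller table (4 pairs), -2.75 with a pseudocount of 1 and -3.05 to -2.95 when a library was left out. Antisense genes above their host numbered 17 with the most abundant host, 12 with no length correction, 12 among pairs with shared exonic bases and 9 among those with none. Without length correction the order turned for Gm15564 (-2.05), Gm20402 (-3.15), Gm11973 (-2.88), Gm13012 (-2.09), 1810034E14Rik (-0.55), Gm20324 (-1.32), 1110002L01Rik (-0.97), Gm13554 (-1.50), 1810062O18Rik (-1.40), and for Gm17173 (-1.65), which was within the spread. These are shorter than their hosts. With the most abundant host it turned for 1110002L01Rik (-2.89), 1810062O18Rik (-1.55), Gm42722 (-1.42) and Sp3os (30.7 TPM beside 119 for Sp3), and in the smaller table for 1110002L01Rik (-0.90; the cause was not tested). Exonic bases were shared in 91 pairs, not 138, when the leading transcripts alone were used. The chi-square calls among the 194 fell from 72 to 0 with the shared overdispersion (from 65.8 to 1.85% of all genes). They were 1 of 3 in the smaller table (33.5% of all genes there) and 40 to 51 without 1 library (41.1 to 48.6% of all genes). No paired analysis was possible because the libraries form a single group. Low counts limit single values of members near the minimum.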
